A study of Mus musculus with 20 samples.

Results

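Genes of fatty acid oxidation and of the peroxisome were followed in cultured mouse macrophages. The set holds 37 genes chosen by name: enzymes of mitochondrial beta-oxidation with its carnitine shuttle, enzymes of peroxisomal beta-oxidation, peroxins and nuclear receptors. Of these, 36 were found among the 14456 genes listed, and Ppara was not analysed here. Bone marrow-derived macrophages (BMDM) were grown with M-CSF from marrow of male C57BL/6 mice aged 8 weeks. In the glucose experiment they were cultured for 24 h either in 25 mM glucose (high glucose) or in 5.5 mM glucose made up with 19.5 mM mannitol, an osmotic control (normal glucose). In the exosome experiment naive BMDM were given PBS, or 2000000000 particles per ml of exosomes for 24 h. Exosomes are small vesicles that cells shed, and they were collected from BMDM held in normal glucose (BMDM-NG-exo) or in high glucose (BMDM-HG-exo). Each of the 5 groups had 4 libraries. The exosome libraries are stated to come from separate exosome preparations and carry 4 dates. Nothing in the sources says whether separate mice gave the libraries of a group, or whether the glucose libraries came from separate cultures, so the p-values measure only the spread between these libraries, which may in part be technical.

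Fatty acids are burned in mitochondria and in peroxisomes. Long chains enter the mitochondrion as carnitine esters, made by Cpt1a at the outer membrane, carried by Slc25a20 and turned back into CoA esters by Cpt2. Inside, an acyl-CoA dehydrogenase, a hydratase, a hydroxyacyl-CoA dehydrogenase and a thiolase shorten the chain in each round, and the electrons pass through the flavoprotein made of Etfa and Etfb to Etfdh. Peroxisomes shorten very long and branched chains with oxidases, bifunctional enzymes and a thiolase of their own. Peroxins build the organelle and import its enzymes, and the nuclear receptors Ppard and Rxra act on genes of both pathways. In macrophages, fatty acid oxidation is best known from alternative activation.

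The promoters of 3 genes that passed a test below, and the stretch shared by the paired genes Hadha and Hadhb, are printed here so that they can be read beside the values. They come from RefSeq windows of GRCm38.p6 that run from 250 bases before a start site to 50 bases after it, and 31 of the 37 genes had such a window. Capitals mark AGGTCA, a core motif bound by many nuclear receptors. The Acaa1a window is chr9:119341044-119341343 on the plus strand, inside the gene as GENCODE M21 draws it, the Echs1 window chr7:140116372-140116671 on the minus strand and the Acadl window chr1:66863260-66863559 on the minus strand. The stretch chr5:30155003-30155230, written on the plus strand, lies in the windows of both Hadha and Hadhb, whose start sites in RefSeq are 273 bases apart and which are transcribed away from each other.
Acaa1a: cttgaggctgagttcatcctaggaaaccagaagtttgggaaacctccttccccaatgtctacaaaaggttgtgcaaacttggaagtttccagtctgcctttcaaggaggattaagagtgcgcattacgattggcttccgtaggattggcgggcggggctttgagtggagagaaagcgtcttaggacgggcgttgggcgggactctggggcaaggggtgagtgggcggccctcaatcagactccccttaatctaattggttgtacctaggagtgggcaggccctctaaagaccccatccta
Echs1: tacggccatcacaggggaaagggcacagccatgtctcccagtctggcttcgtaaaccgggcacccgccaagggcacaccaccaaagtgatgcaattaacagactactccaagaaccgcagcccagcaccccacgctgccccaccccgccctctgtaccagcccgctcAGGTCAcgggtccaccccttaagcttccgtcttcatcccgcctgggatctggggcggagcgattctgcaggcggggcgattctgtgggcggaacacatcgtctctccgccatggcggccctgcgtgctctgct
Acadl: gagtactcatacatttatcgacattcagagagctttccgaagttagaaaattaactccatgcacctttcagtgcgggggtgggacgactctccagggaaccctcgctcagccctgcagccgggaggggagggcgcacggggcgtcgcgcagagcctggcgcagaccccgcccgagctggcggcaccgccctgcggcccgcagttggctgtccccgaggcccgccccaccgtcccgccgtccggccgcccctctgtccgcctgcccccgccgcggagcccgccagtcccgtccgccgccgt
Hadha and Hadhb: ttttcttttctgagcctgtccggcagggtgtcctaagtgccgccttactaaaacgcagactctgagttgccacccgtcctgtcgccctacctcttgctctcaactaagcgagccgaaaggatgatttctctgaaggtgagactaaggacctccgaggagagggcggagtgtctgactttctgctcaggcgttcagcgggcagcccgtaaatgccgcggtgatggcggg

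On either strand, AGGTCA was found in 16.3% of all 32851 windows and in 5 of the 36 windows of these genes (13.9%), those of Rxra, Acadm, Echs1, Acadvl and Cpt1a. In the Echs1 window it begins 83 bases before the start site. The DR1 element, in which AGGTCA is repeated after 1 base, was in 13 of all windows and in 0 of the 36. These are matches of letters in a short window and carry no information on binding.

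The deposited values are normalized counts, gene counts divided by a size factor for each library. A library held 34016445 to 56310712 reads. All 9 macrophage markers were listed, at 3097 normalized counts or more in every library, whereas 0 of 6 erythroid, 1 of 5 B cell and 1 of 6 T and NK cell markers were listed. Neutrophil (4 of 8), stromal (4 of 7), dendritic cell (2 of 7) and adipocyte (1 of 5) markers were listed in part. Their highest sums in a library were 270 (normal glucose), 372 (PBS), 233 (normal glucose) and 1060 (PBS) normalized counts. The sum of the macrophage markers was 640133 to 714242 in normal glucose against 819293 to 889763 in high glucose. In the exosome experiment the sum was 807730 to 854368 after PBS, 729409 to 786639 after BMDM-NG-exo and 746994 to 771979 after BMDM-HG-exo. Lyz2 made up 69.9% to 74.7% of these sums. Without it they were 192591 to 201703 and 219810 to 225969 in normal and high glucose, and 222151 to 235026 after PBS, 196518 to 210496 after BMDM-NG-exo and 195964 to 203133 after BMDM-HG-exo. In high against normal glucose, and after either exosome against PBS, the markers thus moved in the same directions as Acaa1a below. Between the exosomes their sums overlapped. The part of the markers in the values of Acaa1a was not tested. In such bulk RNA, fewer cells of a kind and less RNA per cell cannot be told apart.

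Most steps of both pathways were expressed in BMDM. On the scale of normalized counts per kb of exon, averaged over the 20 libraries, the levels of the 36 genes spanned 46.4-fold, and 25 of them lay above the median of all listed genes. Hsd17b4, the bifunctional enzyme of peroxisomal beta-oxidation, had the highest level at 1892 per kb, followed by the long-chain acyl-CoA dehydrogenase Acadl at 1628 and by Cpt1a at 1111. The short-chain dehydrogenase Acads at 903 per kb and the mitochondrial thiolase Acaa2 at 889.7 per kb came next. At the other end were Pex11a, which acts in peroxisome division, at 40.7 per kb, the peroxisomal bifunctional enzyme Ehhadh at 49.3, Pex10 at 62.9 and Etfb at 69.9. Etfb had only 32 to 107 reads in a library and Ehhadh 60 to 214, so their values carry more counting error. The 36 genes together accounted for 0.151% to 0.163% of all reads.

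Levels differed little between groups. The highest of the 5 group means was 1.07 to 1.32 times the lowest (median 1.16), and the ratio of 1.32 belonged to Acaa1a. For 30 of the 36 genes, each group overlapped with its neighbour in the order of the means. The share of all genes for which this holds is not given here. Within a group the coefficient of variation had a median of 6.03%, and 17 genes stayed below 10% in all 5 groups. For 25 genes the highest mean was in a group of the exosome experiment, to which most of the 5 groups belong. The same count over all genes is not given here either, and the experiment and its cultures cannot be told apart from the treatments.

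**Figure D1:**
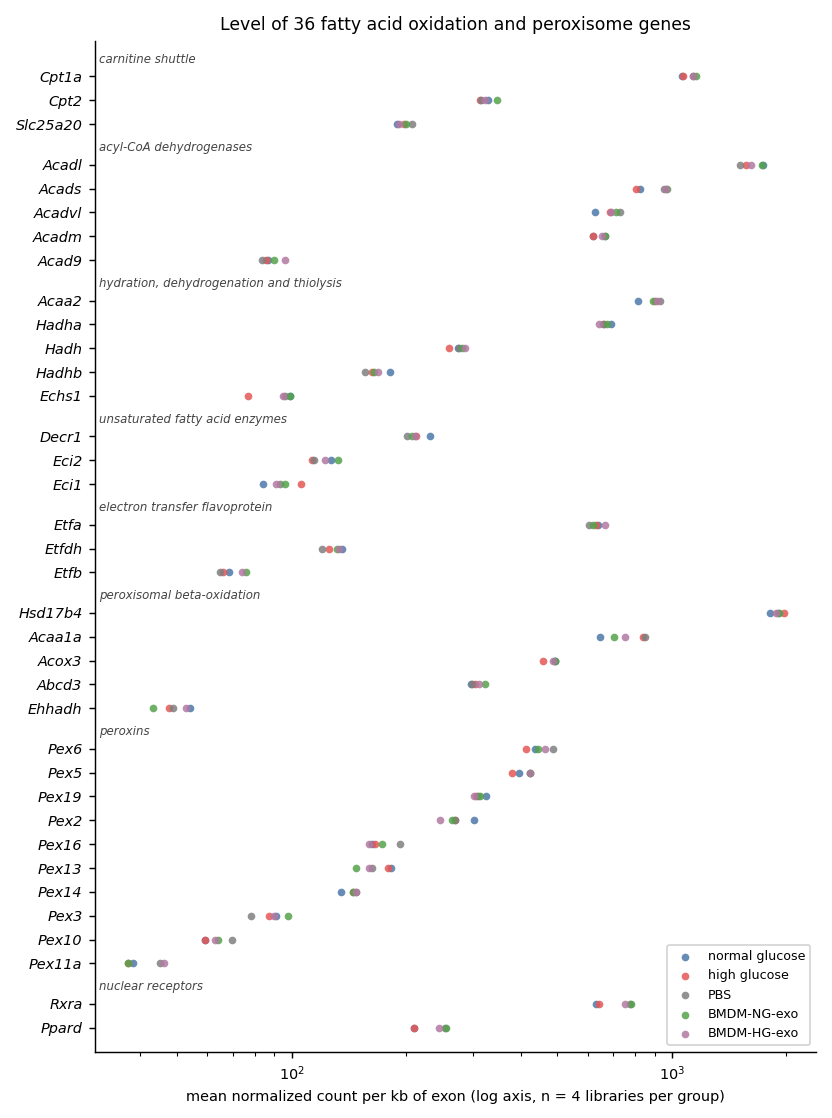
Mean normalized count per kb of exon (log axis) of 36 genes ordered by role, with 1 point for each of the 5 groups (4 libraries each). Genes differ far more than groups do: over all libraries Hsd17b4 lies at 1892 and Pex11a at 40.7 per kb, while the group means of a gene are at most 1.32-fold apart.

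The comparison of high with normal glucose addresses how the macrophages respond to the sugar itself. Changes are given as log2 fold changes (log2FC) of the normalized count plus 1, tested with limma (two-sided) and adjusted by Benjamini-Hochberg (BH) over all 14425 genes. At an adjusted p under 0.05, 4 of the 36 genes were called (11.1%), beside 13.3% of all genes tested. Acaa1a and Hsd17b4, of the peroxisome, were higher, as were 7.74% of all genes, and Echs1 and Acadl, of the mitochondrion, were lower, as were 5.53%. Under quantile normalization the calls were 1 higher (Acaa1a) and 3 lower (Acadl, Acox3 and Echs1), and the share of higher calls over all genes was 47.5% instead of 58.3%. The median log2FC of the set was -0.042, against -0.0031 for all genes, with 12 genes above 0 and 24 below. In 7 of the 36 the libraries of the groups did not overlap (16.3% of all genes), with high glucose above in 3 (9.18%) and below in 4 (7.11%).

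Acaa1a (ENSMUSG00000036138, chromosome 9 of GRCm38, 119339676 to 119350299), the thiolase that completes a round of peroxisomal beta-oxidation, changed most. The normal glucose libraries had 2937, 2646, 2973 and 2862 normalized counts, and the high glucose libraries had 3674, 3429, 3751 and 3959.9. Every high glucose library exceeded every normal glucose one. The means were 2854 ± 147 and 3704 ± 219 (SD), a 1.30-fold rise (log2FC 0.38, SE 0.050, limma adjusted p = 7.18e-07). The call held in 19 of 19 alternative analyses. Reads that fit both Acaa1a and its near-identical paralog Acaa1b, which was not analysed here, make the value uncertain. The gene also shares 290 bases of exon with Myd88, an adaptor of Toll-like receptors on the opposite strand, which rose too (log2FC 0.16, limma adjusted p = 0.0212), although counting is stated to be strand-specific.

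Hsd17b4 (ENSMUSG00000024507) catalyses the hydration and dehydrogenation that precede the thiolase. It had 6110.3, 6027, 6186 and 6377 normalized counts in the normal glucose libraries against 6585, 6559, 6919.6 and 6700.0 in the high glucose libraries. The groups did not overlap, but the rise was only 1.08-fold (log2FC 0.12, SE 0.039, limma adjusted p = 0.0399). With each library left out in turn, the call held only without normal glucose replicate 6 and was lost in the other 7 cases, with a limma adjusted p of up to 0.145.

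The other 3 genes of peroxisomal beta-oxidation were not called. Acox3, an oxidase of branched chains, had 5754, 5652, 5739.9 and 5519 in the normal glucose libraries against 5357, 5408, 5152 and 5177 in the high glucose libraries, again without overlap (log2FC -0.10, limma adjusted p = 0.0787). Abcd3, a transporter of the peroxisomal membrane, had a log2FC of 0.032, and Ehhadh had -0.18 with a 95% interval of -0.52 to 0.16.

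Echs1 (ENSMUSG00000025465, chromosome 7, 140105710 to 140116476), the mitochondrial short-chain enoyl-CoA hydratase, fell the most of the set. It had 797, 887, 772 and 820.1 normalized counts in the normal glucose libraries against 636, 649, 667 and 594 in the high glucose libraries. All high glucose libraries were lower. The means were 819 ± 49.0 and 637 ± 31.1 (SD), and the call held in 19 of 19 alternatives (log2FC -0.36, SE 0.080, limma adjusted p = 0.00138). Echs1 overlaps 142 bases of Paox, a polyamine oxidase gene on the opposite strand that had 869.9, 847, 1011 and 845 against 622, 669, 632 and 532 (log2FC -0.54, limma adjusted p = 1.29e-05). The part of reads from the shared bases was not tested.

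Acadl (ENSMUSG00000026003, chromosome 1, 66830839 to 66863277) had 3315, 3662, 3286 and 3632 normalized counts in the normal glucose libraries against 3124, 3139, 3188 and 3084 in the high glucose libraries. The groups stood apart, with a wider spread in normal glucose (log2FC -0.15, SE 0.047, limma adjusted p = 0.0320). With each library left out in turn, the call held without normal glucose replicates 1 and 5 and was lost in the other 6 cases, with a limma adjusted p of up to 0.106. Of the other 4 acyl-CoA dehydrogenases, none called, Acadvl acts on very long chains and had 1719, 1579, 1768 and 1674 against 1770.2, 1938, 1881 and 1784, also without overlap (log2FC 0.13, limma adjusted p = 0.134). Acadm, Acads and Acad9 had a log2FC of -0.0035, -0.027 and -0.014.

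The remaining roles held no called gene. Cpt1a, the regulated entry step of the shuttle, had 8008, 7841, 8472 and 8072 normalized counts in the normal glucose libraries against 8423, 8063, 8078 and 8142 in the high glucose libraries. These overlapped, and the 95% interval of its log2FC was -0.061 to 0.090 (log2FC 0.014, SE 0.037, limma adjusted p = 0.860). Its sign turned under quantile normalization. Cpt2 and Slc25a20 had a log2FC of -0.068 and 0.061.

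Among the later steps of the mitochondrial round, Acaa2 had 1155, 1169, 1284 and 1321 against 1422, 1265, 1386 and 1406, with overlap (log2FC 0.15, SE 0.065, limma adjusted p = 0.120). Hadha and Hadhb, the subunits of the trifunctional protein that share the promoter stretch printed above, had a log2FC of -0.067 and -0.15 (limma adjusted p = 0.292 and 0.137). Hadh, the short-chain hydroxyacyl-CoA dehydrogenase, had a log2FC of -0.078.

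The enzymes that handle double bonds and the electron carriers were not called either. Eci1, an enoyl-CoA isomerase, had 162, 182, 168 and 202 against 240.2, 220.3, 237 and 200.2, in which 1 high glucose library fell below the highest normal glucose one (log2FC 0.33, SE 0.15, limma adjusted p = 0.143). Its relative Eci2 had a log2FC of -0.17. Decr1, the dienoyl-CoA reductase, had 971, 797, 922 and 895 against 875, 764, 849 and 806, with overlap (log2FC -0.12, SE 0.077, limma adjusted p = 0.346). Etfa had 1190.1, 1227, 1067 and 1209 against 1146, 1108, 1236 and 1144, also with overlap (log2FC -0.018, SE 0.066, limma adjusted p = 0.907), while Etfb and Etfdh had a log2FC of -0.074 and -0.11.

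None of the 10 peroxins was called by limma, where 13.3% of all genes were. An unadjusted p under 0.05 was reached by 0 of the 10 and by 9 of the 36 genes, and its share over all genes is not given here. No conclusion on the peroxins is drawn from this count. Their log2FC ran from -0.16 for Pex2 to 0.11 for Pex14. Pex6, an ATPase that recycles the import receptor, had 1678, 1810.4, 1731 and 1420.0 against 1532, 1612, 1627 and 1513, with overlap (log2FC -0.074, SE 0.064, limma adjusted p = 0.512). Pex19, a chaperone of peroxisomal membrane proteins, was the peroxin without overlap (log2FC -0.088, limma adjusted p = 0.399). The import receptor Pex5 had a log2FC of -0.058, and Pex3, Pex10, Pex11a, Pex13 and Pex16 had -0.063, -0.0019, -0.057, -0.0088 and 0.013. Of the receptors, Rxra, the common partner, had 3463, 3395, 3586 and 3382 against 3616, 3555, 3407 and 3481, with overlap and a sign that turned under quantile normalization (log2FC 0.024, SE 0.044, limma adjusted p = 0.787). Ppard had a log2FC of 0.0035.

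For 32 of the 36 genes the whole 95% interval lay within 0.5 of zero on the log2 scale. The exceptions were Echs1, Eci1, Ehhadh and Etfb, of which Etfb spanned -0.58 to 0.43.

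**Figure D2:**
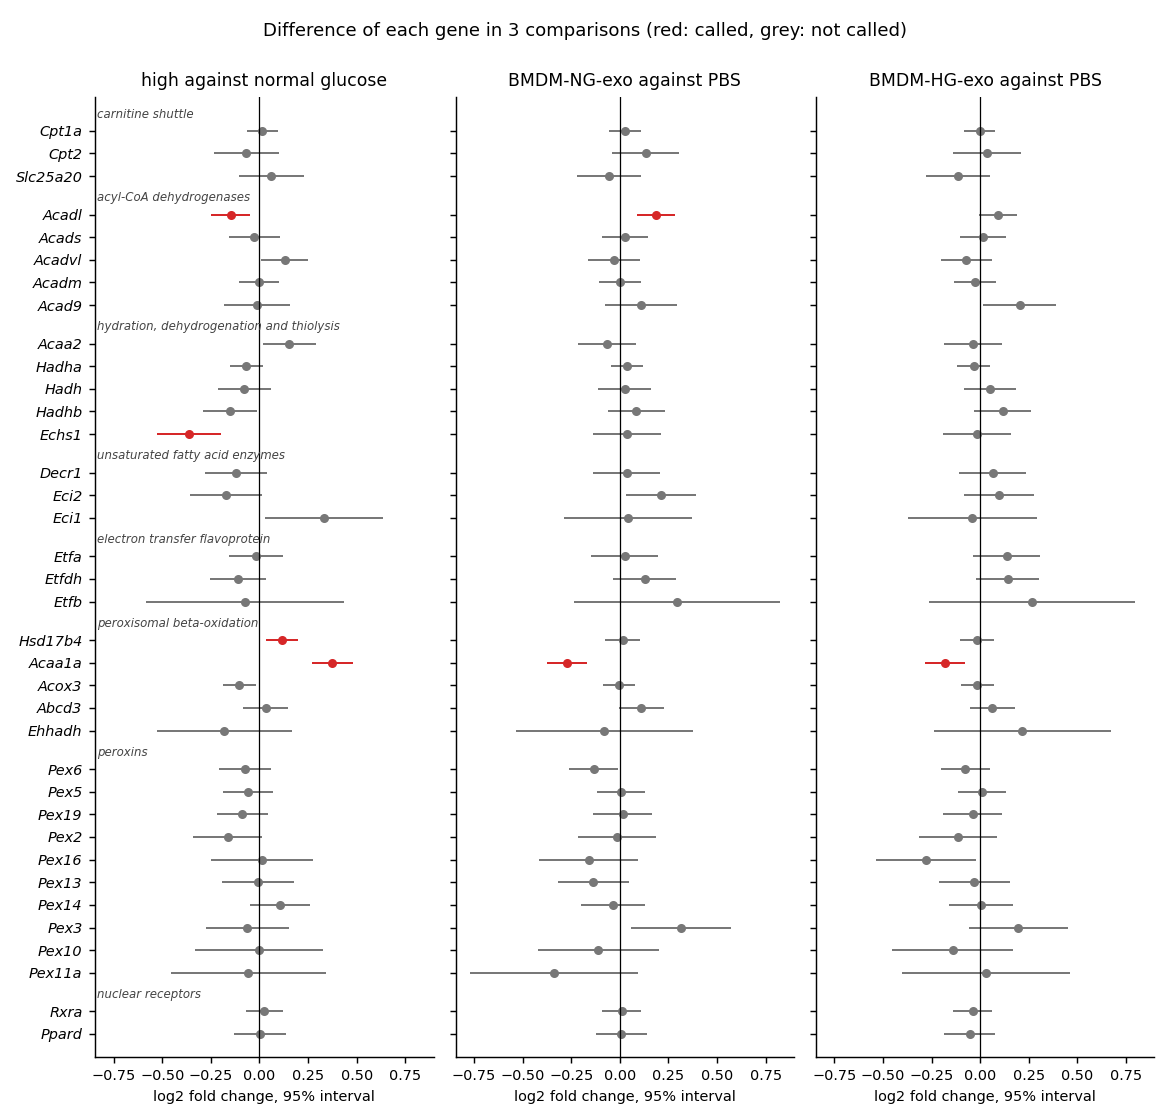
Log2 fold change (x axis) with its 95% interval for 36 genes in 3 comparisons, red where called and grey where not. Red points stand at 0.38 for Acaa1a and -0.36 for Echs1 in high glucose, and at -0.27 and -0.18 for Acaa1a after the exosomes, whose panels share the PBS libraries.

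The exosome comparisons ask whether naive BMDM respond to vesicles and whether the glucose of the donor cells matters. A call here also needed a log2FC of 0.15 or more in size, and 14413 genes were tested. Each of the 4 dates in the labels gave 1 library per group, so that differences could also be read within dates.

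After BMDM-NG-exo relative to PBS, 2 of the 36 genes were called (5.56%), beside 3.0% of all genes. Acaa1a was lower (2.11% of all genes) and Acadl higher (0.888%). For Acaa1a the PBS libraries had 4027, 3728, 3572 and 3709.7 normalized counts and the BMDM-NG-exo libraries 3307, 3053, 3123 and 2973. All BMDM-NG-exo libraries were lower, within dates by a log2FC of -0.32 to -0.19 (log2FC -0.27, SE 0.048, limma adjusted p = 0.000337), and the call held in 19 of 19 alternatives. Myd88 was not called (log2FC -0.15, limma adjusted p = 0.117).

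For Acadl the PBS libraries had 3095, 3053, 2931 and 3049.8 normalized counts and the BMDM-NG-exo libraries 3507, 3373, 3526 and 3402. The groups again stood apart, with a log2FC of 0.14 to 0.27 within dates (log2FC 0.19, SE 0.046, limma adjusted p = 0.0143). Without PBS replicate 3 the limma adjusted p was 0.0510, and without BMDM-NG-exo replicate 3 it was 0.0589.

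The other 34 genes were not called after BMDM-NG-exo. Non-overlapping groups were seen in 5 of the 36, beside 8.27% of all genes. Apart from the called pair they were Eci2 (614, 674, 574 and 678 after PBS, 684, 777, 706 and 771 after BMDM-NG-exo), Abcd3 and Pex6, with a log2FC of 0.21, 0.11 and -0.13 and a limma adjusted p of 0.241, 0.376 and 0.289. Pex3, an early factor of the peroxisomal membrane, had 363, 399, 337 and 380.1 after PBS and 363, 534, 521 and 441 after BMDM-NG-exo, with overlap (log2FC 0.31, limma adjusted p = 0.211). Cpt1a had a 95% interval of -0.050 to 0.10, and Ppard and Rxra had a log2FC of 0.0082 and 0.010. Echs1 and Hsd17b4, called in high glucose, had 0.038 and 0.014, signs that turned when single libraries were left out.

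After BMDM-HG-exo relative to PBS, 1 of the 36 genes was called (2.78%), beside 4.84% of all genes, and it was Acaa1a, lower (3.08% of all genes). Its BMDM-HG-exo libraries had 3428, 3397, 3241 and 3190.0 normalized counts, all under the lowest PBS library at 3572. Within dates the log2FC was -0.23 to -0.13 (log2FC -0.18, SE 0.048, limma adjusted p = 0.0162). The call was lost without PBS replicate 1, without BMDM-HG-exo replicate 3 and without BMDM-HG-exo replicate 4, at a limma adjusted p of 0.105, 0.0586 and 0.0637. Myd88 was lower as well (log2FC -0.20, limma adjusted p = 0.0116). Acaa1a was also the 1 gene of the 36 without overlap, beside 10% of all genes.

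Acadl had 3238, 3455, 3154 and 3081 after BMDM-HG-exo, the lowest of which lay within the PBS range (log2FC 0.091, limma adjusted p = 0.319). Acad9, a dehydrogenase that also helps to assemble respiratory complex I, had 714, 606, 734 and 677 after PBS and 794, 857, 706 and 785 after BMDM-HG-exo, which overlapped (log2FC 0.20, limma adjusted p = 0.225). Pex16, which acts with Pex3 in the early membrane, had 347, 356, 324 and 343 after PBS against 269, 335, 246 and 283 after BMDM-HG-exo, with overlap in 1 library (log2FC -0.28, limma adjusted p = 0.228). Both comparisons with PBS share the PBS libraries and are not independent of each other.

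For BMDM-HG-exo relative to BMDM-NG-exo, limma called 0 of the 36 genes, beside 2 of all genes (0.0139%), and edgeR and DESeq2 also called 0 of the 36. With the date as a block, 22 genes were called, again 0 of the 36, and with single libraries left out the 2 calls became 1 to 7 (7 without BMDM-NG-exo replicate 1) while the 36 held 0. An unadjusted p under 0.05 was reached by 1 of the 36, beside 6.54% of all genes, and this was Acadl (log2FC -0.10, SE 0.046, limma adjusted p = 0.753). Hadha had 5955, 5913, 5776 and 5977 after BMDM-NG-exo and 5665, 5595, 5588 and 5621 after BMDM-HG-exo. It was the 1 gene of the set without overlap, beside 3.86% of all genes, and was lower within all 4 dates, by a log2FC of -0.089 to -0.048 (log2FC -0.072, SE 0.038, limma adjusted p = 0.812). Acaa1a had a log2FC of 0.090 with a 95% interval of -0.0075 to 0.19, and 0.052 to 0.15 within dates, above 0 on all 4. Over the 4 dates Decr1, Ehhadh and Pex11a were also above 0 each time and Pex3 below, and none of them was called. The share of all genes that kept the same sign over the dates is not given here, and depth limited Ehhadh and Pex11a. For 33 of the 36 genes the interval lay within 0.5 of zero.

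BMDM-HG-exo was also set against PBS and BMDM-NG-exo combined (4 against 8 libraries). Here limma called 0 of the 36 genes, beside 29 of all genes (0.201%), and edgeR and DESeq2 called 0 of the 36 as well. With single libraries left out, the count over all genes ran from 1 without BMDM-HG-exo replicate 1 to 204 without BMDM-NG-exo replicate 3, while that of the 36 stayed at 0. An unadjusted p under 0.05 was reached by 0 of the 36 and by 10.5% of all genes, and groups without overlap by 0 of the 36 and by 1.17% of all genes. The smallest p belonged to Pex16, with 325, 282, 328 and 292 normalized counts after BMDM-NG-exo beside the values above (log2FC -0.20, SE 0.11, limma adjusted p = 0.537). Acad9 followed, with 795, 802, 639.7 and 713 after BMDM-NG-exo (log2FC 0.15, SE 0.079, limma adjusted p = 0.539). The log2FC of Acaa1a was -0.046 and that of Acadl -0.0025, where the combined controls join PBS and BMDM-NG-exo libraries that stood apart for both genes.

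**Figure D3:**
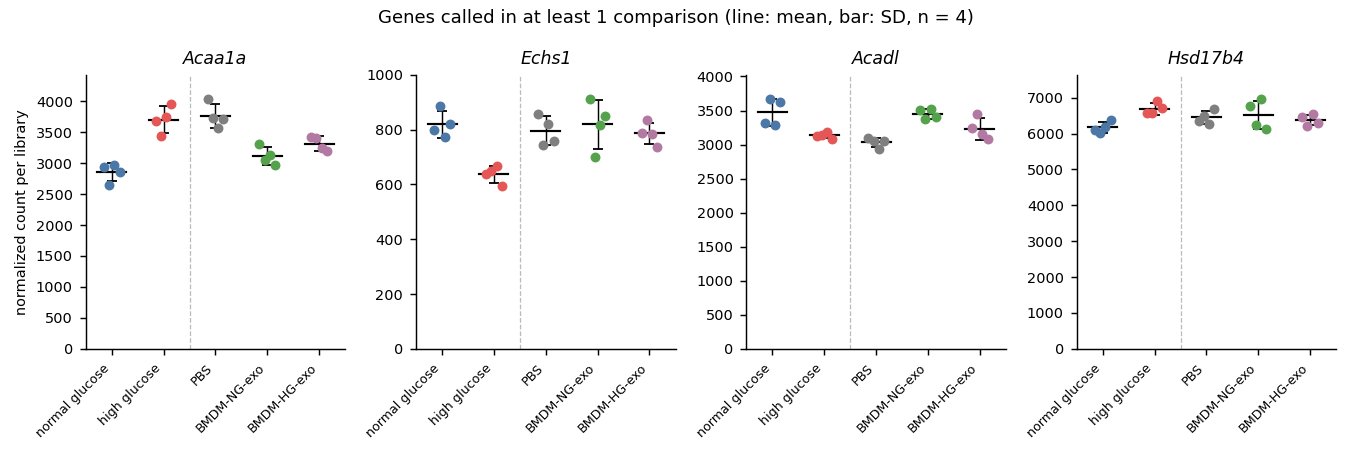
Normalized count per library (y axes start at 0) of the 4 genes called in at least 1 comparison, with the mean as a line and the SD as a bar (4 libraries per group) and a dashed line between the experiments. Acaa1a averaged 2854 in normal and 3704 in high glucose, then 3759 after PBS, 3114 after BMDM-NG-exo and 3314 after BMDM-HG-exo.

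A wider list of 110 genes of these pathways, from fatty acid uptake to peroxisomal enzymes and receptor targets, had 94 tested genes. It was chosen with earlier results of these data known, so its share of calls cannot be read as a test of these pathways. In high glucose 20 of the 94 were called (21.3%, beside 13.3% of all genes), 8 higher and 12 lower. Under quantile normalization 17 were called, 5 higher and 12 lower. Of 25 other peroxisomal enzymes, 3 were higher and 3 lower, beside 7.74% and 5.53% of all genes. Cat, the catalase that removes the hydrogen peroxide made by peroxisomal oxidases, had 21246, 21128, 21155 and 22777 normalized counts in the normal glucose libraries against 30580.1, 32715, 33120.4 and 32702 in the high glucose libraries. Every high glucose library was above every normal glucose one (log2FC 0.58, SE 0.034, limma adjusted p = 3.37e-15). Idh1, an NADPH-making isocitrate dehydrogenase of cytosol and peroxisome, had 11133, 11742, 10358 and 11552 against 14397, 15495, 15603 and 16180.3, also without overlap (log2FC 0.46, SE 0.040, limma adjusted p = 7.10e-11). The peroxiredoxin Prdx5 was higher by 0.16, whereas Paox, described above, and Phyh and Hacl1, enzymes of alpha-oxidation, were lower with a log2FC of -0.54, -0.25 and -0.47.

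The list of 17 other acyl-CoA dehydrogenases and mitochondrial enzymes had 5 called genes, all lower, where 5.53% of all genes were called lower. Decr2, a peroxisomal dienoyl-CoA reductase placed in this list, had 894, 963, 911 and 1031 against 757, 725, 699 and 699.7, without overlap (log2FC -0.40, SE 0.075, limma adjusted p = 0.000219). Acad10, Acad12, Acadsb and the propionyl-CoA carboxylase subunit Pccb had a log2FC of -0.47, -0.42, -0.18 and -0.32.

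Of 13 genes of uptake and activation, 2 were higher and 3 lower, where 7.74% and 5.53% of all genes were. Among acyl-CoA synthetases, Acsl4 was higher (3407, 3457, 3380.1 and 3308 against 3658, 3866, 3992 and 4223, log2FC 0.21, SE 0.046, limma adjusted p = 0.00119) and so was Acsl5 at 0.21. Acsl3 was lower, with 494, 589, 593 and 518 against 365, 426, 349 and 397 (log2FC -0.51, SE 0.10, limma adjusted p = 0.000418). The fatty acid binding proteins Fabp4 and Fabp5 were lower with a log2FC of -0.36 and -0.17. Of 16 receptors, coregulators and targets, 3 were higher, among them Angptl4 at 0.30 and Plin2 at 0.12, and Ucp2, a mitochondrial carrier, was lower at -0.10. Of 14 genes of carnitine and acyl-CoA handling and of 9 other peroxins and division factors, limma called 0, where 13.3% of all genes were called. In each list 3 genes had an unadjusted p under 0.05, a count whose share over all genes is not given here.

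After the exosomes the called genes of this list were led by fatty acid binding proteins, which carry fatty acids in the cytosol. Fabp5 had 6916, 6065, 6337 and 6521 after PBS, 8562, 8576, 7996 and 8563 after BMDM-NG-exo and 8738, 8868, 8579 and 7854 after BMDM-HG-exo. Both exosome groups lay above all PBS libraries, with log2FC 0.38, SE 0.043, limma adjusted p = 1.59e-07 for BMDM-NG-exo and log2FC 0.40, SE 0.043, limma adjusted p = 3.85e-08 for BMDM-HG-exo. Fabp4 had 342, 297, 303 and 356 after PBS, 511, 445, 462 and 407 after BMDM-NG-exo and 546, 485, 499 and 457 after BMDM-HG-exo, likewise without overlap (log2FC 0.49, limma adjusted p = 0.00457, and log2FC 0.61, limma adjusted p = 0.000169). These were the 2 genes of 94 called after BMDM-NG-exo (2.13%, beside 3.0% of all genes).

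After BMDM-HG-exo relative to PBS, 5 of the 94 were called (5.32%, beside 4.84% of all genes), 4 of them higher. Besides the Fabp genes, Cat was higher (25973, 24879, 25061 and 26308 against 29489.5, 29180.5, 29142 and 27346, log2FC 0.17, SE 0.037, limma adjusted p = 0.00202). Ucp2 was lower, with 43474, 41492, 41838 and 39590.1 after PBS and 34426, 34193, 36148 and 37578 after BMDM-HG-exo (log2FC -0.23, SE 0.034, limma adjusted p = 1.32e-05), and after BMDM-NG-exo it had log2FC -0.15, limma adjusted p = 0.00548, just under the fold limit, which it passed with TMM factors. Between the exosomes and against the combined controls, limma called 0 of the 94, while 7 and 10 had an unadjusted p under 0.05, where 6.54% and 10.5% of all genes did.

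**Figure D4:**
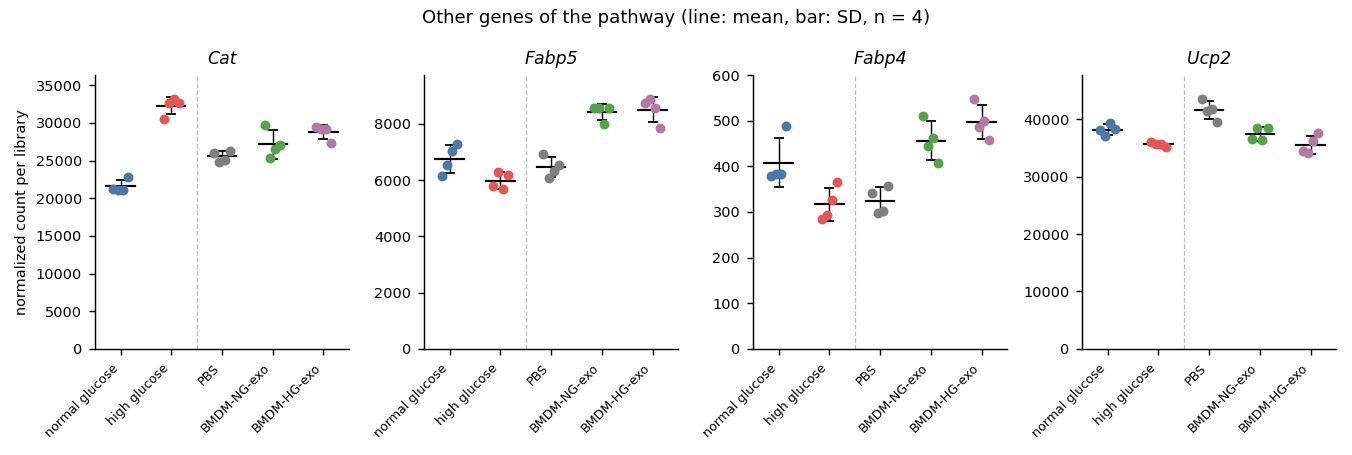
Normalized count per library (y axes start at 0) of 4 other genes of the pathways in the 5 groups, with the mean as a line and the SD as a bar (4 libraries per group) and a dashed line between the experiments. Cat lies at 30580.1 or more in high glucose and at 22777 or less in normal glucose, and Fabp5 and Fabp4 lie higher after either exosome than after PBS.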

How the data were processed

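Stranded total RNA of BMDM was sequenced after depletion of ribosomal cDNA. The authors quality-filtered and trimmed the reads, removing the first bases of read 2 (the submitters' processing notes list cutadapt, with no role). They mapped the reads with STAR (build GRCm38 in the same notes) and ran featureCounts with read 2 as sense. The deposited signal is the gene count over the median-ratio size factor that DESeq2 gave each library. The annotation behind the counts is not given in the sources used here. Names, coordinates and exon lengths were taken from GENCODE M21.

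Division of each column by its smallest step gave whole reads for 100% of values (tolerance 0.001). In PBS replicate 4 and BMDM-HG-exo replicate 1 that step is close to 1. These reads served for totals and for the count-based alternatives. The lowest median over the libraries of any listed gene was 11 reads. Libraries of a group differed from each other by a chi-square per degree of freedom of 5.23 to 42.3 (30 pairs), so none was a copy.

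The main fits used limma 3.58.1 in R 4.3.3 (eBayes with trend) on log2 of the normalized value plus 1, for genes averaging 10 or more. Glucose libraries (8) and exosome libraries (12) were fitted apart, the combined controls in a fit of their own. Alternatives changed the pseudocount, filter, normalization, trend, weights and block, left out single libraries, or used edgeR 4.0.16 and DESeq2 1.42.0. The fits were checked against simulated reads. Plots came from matplotlib 3.10.9 and tables from pandas 2.3.3, scipy 1.17.1 and numpy 2.4.6 under Python 3.11.15.

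A date in the labels pairs the exosome libraries. Once group means were removed, libraries of a date correlated with a mean r of 0.012 (12 pairs) and the others with -0.004 (36 pairs). Removing group means ties these values to each other, so they are not separate results. The genes, lists and naming rule were chosen with earlier results of these data known. The rule gave values per library for called genes, for the gene with the highest level per kb in each role, for the 2 smallest p where none was called, and for up to 3 genes per direction of the wider list. Neutrophil, dendritic cell, stromal and adipocyte markers were listed for 4 of 8, 2 of 7, 4 of 7 and 1 of 5 genes. Results of some genes of the wider list are not reported here.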

Additional observations from a re-analysis of the deposited data

Results flagged for a closer look

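In 3 of 180 sets of 4 libraries a single library stood far from the other 3 of its group, where chance gives about 1 in 20. Ehhadh was at 157 normalized counts in BMDM-NG-exo replicate 4, against 116 to 120 in the others. Pex14, a part of the docking complex for protein import, was at 933 in normal glucose replicate 1, against 809 to 825. Pex19 was at 1043 in PBS replicate 4, against 1222 to 1236. These 3 genes were not called in any of the 5 comparisons.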

How the results depend on the processing

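Over 44 results of single genes, 806 of 852 alternative values kept their direction and their side of the threshold. Genes that were not called and stayed so count here, so this share says little on the calls. In high glucose the calls of Acaa1a and Echs1 held in 19 of 19 alternatives, Acadl in 11 and Hsd17b4 in 9. After BMDM-NG-exo Acaa1a held in 19 of 19 and Acadl in 16, and after BMDM-HG-exo Acaa1a held in 15. The number of genes called in high glucose went from 4 to 2 without the variance trend, to 2 with the replicate block on library numbers 1 and 6, and to 2 to 3 with single libraries left out, which ended calls of Acadl and Hsd17b4 and of none of the other called genes. With group means removed, glucose libraries that share a number correlated with a mean r of 0.008 (2 pairs) and the others with -0.001 (14 pairs). So few pairs cannot tell whether the numbers pair the libraries, and removing group means also ties these mean correlations to each other. In the block fit only libraries numbered 1 and 6 inform the difference, as every other number occurs in a single group. Acadl was at a limma adjusted p of 0.151 without the trend and 0.196 with the block, and Hsd17b4 at 0.151 and 0.520, and at 0.257 under quantile normalization. Acox3 was called under quantile normalization (0.0147) and by DESeq2 (0.0271). After BMDM-NG-exo the count of 2 became 1 without the trend and 1 to 2 with single libraries left out, and after BMDM-HG-exo the count of 1 became 0 without the trend and 0 to 1. The cause was not tested. With the date as a replicate block the counts of the 36 genes in the exosome comparisons stayed at 2, 1, 0 and 0, and no call among them changed.

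Small log2FC values changed sign. Under quantile normalization Cpt1a was at -0.021 and Rxra at -0.024 in high glucose, and Acadl was at 0.0079 against the combined controls. With single libraries left out, the ranges were -0.0010 to 0.036 (Cpt1a) and -0.062 to 0.0045 (Etfa) in high glucose, -0.035 to 0.020 (Acadl) against the combined controls, and -0.015 to 0.11 (Echs1) and -0.018 to 0.042 (Hsd17b4) after BMDM-NG-exo. In the wider list, Acsl4 and Cat (BMDM-HG-exo) lost their calls without the trend (0.0670 and 0.142) and Acsl3 with the block (0.0818).

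Over all genes, the 1914 calls in high glucose became 654 without the trend and 788 with the block, and the 432 after BMDM-NG-exo became 95 and the 698 after BMDM-HG-exo 295 without the trend. The 29 calls against the combined controls became 11 to 17 without 1 of the PBS libraries, 97, 50 and 204 without BMDM-NG-exo replicates 1, 2 and 3, and 1, 7, 8 and 45 without BMDM-HG-exo replicates 1, 2, 3 and 4. They became 136 with DESeq2, 49 with array weights, 47 with a pseudocount of 5, 19 under quantile normalization and 1 without the trend, and the 2 between the exosomes became 25 with DESeq2, 22 with the block, 6 with array weights, 5 with a pseudocount of 5 or a minimum mean of 50, and 1 with TMM factors, with edgeR or without the trend. Between the exosomes the count was 7 without BMDM-NG-exo replicate 1, 5 without BMDM-HG-exo replicate 4, 3 without its replicate 2, and 1 without BMDM-NG-exo replicate 2 or 4 or BMDM-HG-exo replicate 1. Depth limited Etfb, Ehhadh and Pex11a, which had 32 reads or more per library.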
